A study of Mus musculus with 51 samples.

Results

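The transcription factors that set and maintain the identity of midbrain dopaminergic neurons were followed here as 8 genes, chosen by name out of 24564 genes in the deposited table: Nr4a2, Pitx3, En1, En2, Lmx1a, Foxa1, Foxa2 and Ebf3. The study asked what the loss of Polycomb repressive complex 2 (PRC2) does to gene expression in 2 kinds of neuron. PRC2 places the repressive mark H3K27me3 on histone H3. Midbrain dopaminergic neurons (mDA, mouse strain DatCreEed) and serotonergic neurons (5HT, strain SertCreEed) were sorted from adult mouse midbrain by flow cytometry, and RNA of each animal was sequenced by Smart-seq2. Animals labelled wt or PRC2 mutant were taken at 4 and 8 months, which gave 9 wt and 10 mutant mDA libraries at 4 months, 8 wt and 8 mutant mDA libraries at 8 months, and 4 libraries in each of the 4 corresponding 5HT groups. In the strain names Eed is the gene of a PRC2 core subunit, and Dat and Sert are the dopamine and serotonin transporters, whose Cre lines act in the neurons that make them. The labels give neither the floxed allele nor whether wt animals carried Cre, and they name no sorting gate.

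In the embryo, Foxa1, Foxa2 and Lmx1a act early in the ventral midbrain, in the floor plate that gives rise to dopaminergic progenitors, while the engrailed factors En1 and En2 mark the midbrain and anterior hindbrain. Nr4a2 and Pitx3 come on as the neurons become postmitotic and activate genes for dopamine synthesis, storage and uptake, such as Th, Slc18a2 and Slc6a3. Several of these factors stay on in the adult, where Nr4a2, Pitx3, En1, En2 and the Foxa factors are known for keeping dopaminergic neurons alive and in their transmitter phenotype, and Ebf3 belongs to a helix-loop-helix family that acts in neuronal migration and differentiation.

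Total counts ran from 1644460 to 12250492 per library, so that 3 counts corresponded to between 0.237 and 1.84 CPM (counts scaled to a common library size). The label mDA was checked against its markers. Th, the rate-limiting enzyme of dopamine synthesis, stood at 1696 ± 347 CPM (SD, n = 8) in wt mDA libraries at 8 months and at no more than 35.8 CPM in any 5HT library of that age. Eed itself did not fall with the label: its mean was 23.7 ± 9.12 CPM in mutant against 14.1 ± 6.32 CPM in wt mDA libraries at 4 months (n = 10 and 9), and 22.4 ± 9.30 against 13.5 ± 3.17 CPM at 8 months (n = 8 each). In 5HT libraries Eed stood at 24.9 ± 3.895 against 10.2 ± 3.02 CPM at 4 months and 17.6 ± 5.52 against 13.5 ± 2.11 CPM at 8 months (n = 4 each), and none of these differences passed the test. Counts are per gene and do not separate the exons that were removed, so mutant below means the label. Values are CPM scaled by TMM over all 51 libraries, and differences are log2 fold changes from edgeR's quasi-likelihood test, called at a Benjamini-Hochberg adjusted p under 0.05 over all genes tested. Replicates are different animals by their labels.

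The 8 genes lie on 6 chromosomes of GRCm38 and do not form a cluster. Nr4a2 (nuclear receptor, also called Nurr1) lies on chromosome 2 at 57106830-57124003 on the minus strand, Foxa2 on the same chromosome at 148042877-148046969 (minus), and Pitx3 on chromosome 19 at 46135685-46148326 (minus). En1 lies on chromosome 1 at 120602418-120607992 (plus), as does Lmx1a at 167689237-167848741 (plus), and En2 on chromosome 5 at 28165694-28172166 (plus). Foxa1 spans chromosome 12 at 57540628-57546916 (minus), and Ebf3 chromosome 7 at 137193673-137314445 (minus). Ebf3 overlaps the antisense gene models Gm45278 by 3235 bases and Gm10578 by 7927 bases, and En2 overlaps Gm43610 by 365 bases. Pitx3 overlaps the protein-coding gene Elovl3, on the opposite strand, by 10 bases. The counting may not have used strand, since no source used here says, so reads in these overlaps cannot be told apart.

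Because H3K27me3 in mammals is known for CpG-rich promoters, the sequences upstream of the 4 factors that were lower in mutant mDA libraries at 8 months are shown, 5′ to 3′ on the gene's strand, with each CpG in capitals and only the bases outside annotated gene bodies. They come from the RefSeq promoter table (GRCm38.p6), in which 7 of the 8 factors matched; En2 is named only.
Nr4a2, chr2:57124004-57124253, minus strand: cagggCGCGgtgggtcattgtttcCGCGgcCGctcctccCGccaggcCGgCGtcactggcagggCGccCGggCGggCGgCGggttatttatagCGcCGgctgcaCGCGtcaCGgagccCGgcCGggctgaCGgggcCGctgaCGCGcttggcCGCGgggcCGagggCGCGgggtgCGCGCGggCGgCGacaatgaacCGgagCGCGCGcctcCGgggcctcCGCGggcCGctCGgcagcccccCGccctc
Ebf3, chr7:137314446-137314695, minus strand: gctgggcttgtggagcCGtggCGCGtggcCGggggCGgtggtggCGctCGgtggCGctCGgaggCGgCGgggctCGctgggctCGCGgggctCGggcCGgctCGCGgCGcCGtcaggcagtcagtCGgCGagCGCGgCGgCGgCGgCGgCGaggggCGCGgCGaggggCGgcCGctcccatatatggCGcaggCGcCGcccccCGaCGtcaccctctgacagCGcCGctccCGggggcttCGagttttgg
En1, chr1:120602237-120602417, plus strand: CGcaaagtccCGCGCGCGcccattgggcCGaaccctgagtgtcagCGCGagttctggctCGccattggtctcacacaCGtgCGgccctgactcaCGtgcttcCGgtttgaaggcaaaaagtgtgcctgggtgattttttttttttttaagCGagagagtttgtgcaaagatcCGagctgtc
Pitx3, chr19:46148327-46148575, minus strand: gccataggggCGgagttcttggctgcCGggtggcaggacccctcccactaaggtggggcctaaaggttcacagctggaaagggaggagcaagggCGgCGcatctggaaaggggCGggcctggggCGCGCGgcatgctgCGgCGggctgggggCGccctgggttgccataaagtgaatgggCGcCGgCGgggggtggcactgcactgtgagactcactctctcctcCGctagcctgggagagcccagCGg

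Nr4a2 and Ebf3 had the densest of these windows, with 44 and 43 CpG in 250 bases, while the median of 32851 promoters was 6. Of those promoters, 99.46% held fewer CpG than Nr4a2 and 99.29% fewer than Ebf3. Over the full 250 bases, Foxa1 had 21 CpG, En1 19, Pitx3 16 and Lmx1a 9, and the 3 start sites of Foxa2 had 6, 20 and 13. Motifs of the factors' own families were searched on both strands in the 9 windows: the Nr4a site AAAGGTCA (found in 1.34% of all promoters), the homeodomain core TAATTA (4.84%), the bicoid-type site TAATCC of Pitx factors (6.25%), the forkhead site TGTTTAC (3.17%) and the palindromic EBF site (0.779%). The EBF site was searched as TCCC and GGGA separated by any 2 bases and TAATTA and TAATCC share their first 4 letters. The only match was a forkhead site, GTAAACA on the reverse complement, 141 bases upstream of a RefSeq start of Foxa1 that lies within the annotated gene body, as do the whole windows of Foxa1 and Lmx1a.

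In wt neurons the factors differed widely in level. Per kilobase of exon, wt mDA libraries at 8 months held 53.6 CPM per kb of Nr4a2 and 44.5 of En1, then 17.0 of Ebf3, 10.6 of Foxa2, 9.62 of Pitx3, 9.21 of Foxa1, 9.17 of Lmx1a and 5.72 of En2. Nr4a2 and En1 were thus the most abundant of the 8 on this length-corrected scale, and En2 the least. In the wt contrast of the cell types all 8 were higher in mDA neurons, as were 11.3% of all genes tested. The log2 difference was 6.57 (SE 0.339) for Nr4a2, 6.59 (SE 0.565) for Pitx3 and 6.12 (SE 0.454) for Foxa2, and these do not differ beyond their SE. The values of Pitx3 and Foxa2 rest on few 5HT counts, with 6 and 1 for Pitx3 and 4 and 10 for Foxa2 over the wt 5HT libraries at 4 and 8 months. The other log2 differences were smaller: Lmx1a (4.10), Ebf3 (3.70), Foxa1 (3.58), En2 (2.48) and En1 (2.14). Cell type, mouse strain and sequencing set cannot be told apart in this contrast. Per kilobase, En1 had the highest level of the 8 in wt 5HT libraries at 8 months, at 8.03 ± 1.001 CPM per kb (n = 4). Between ages, none of the 8 was called in wt mDA neurons (0% of genes called; edgeR called 0 and DESeq2 18 genes, and 1204 were under an unadjusted p of 0.05), with log2 differences from 0.07 to 0.39.

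**Figure D1:**
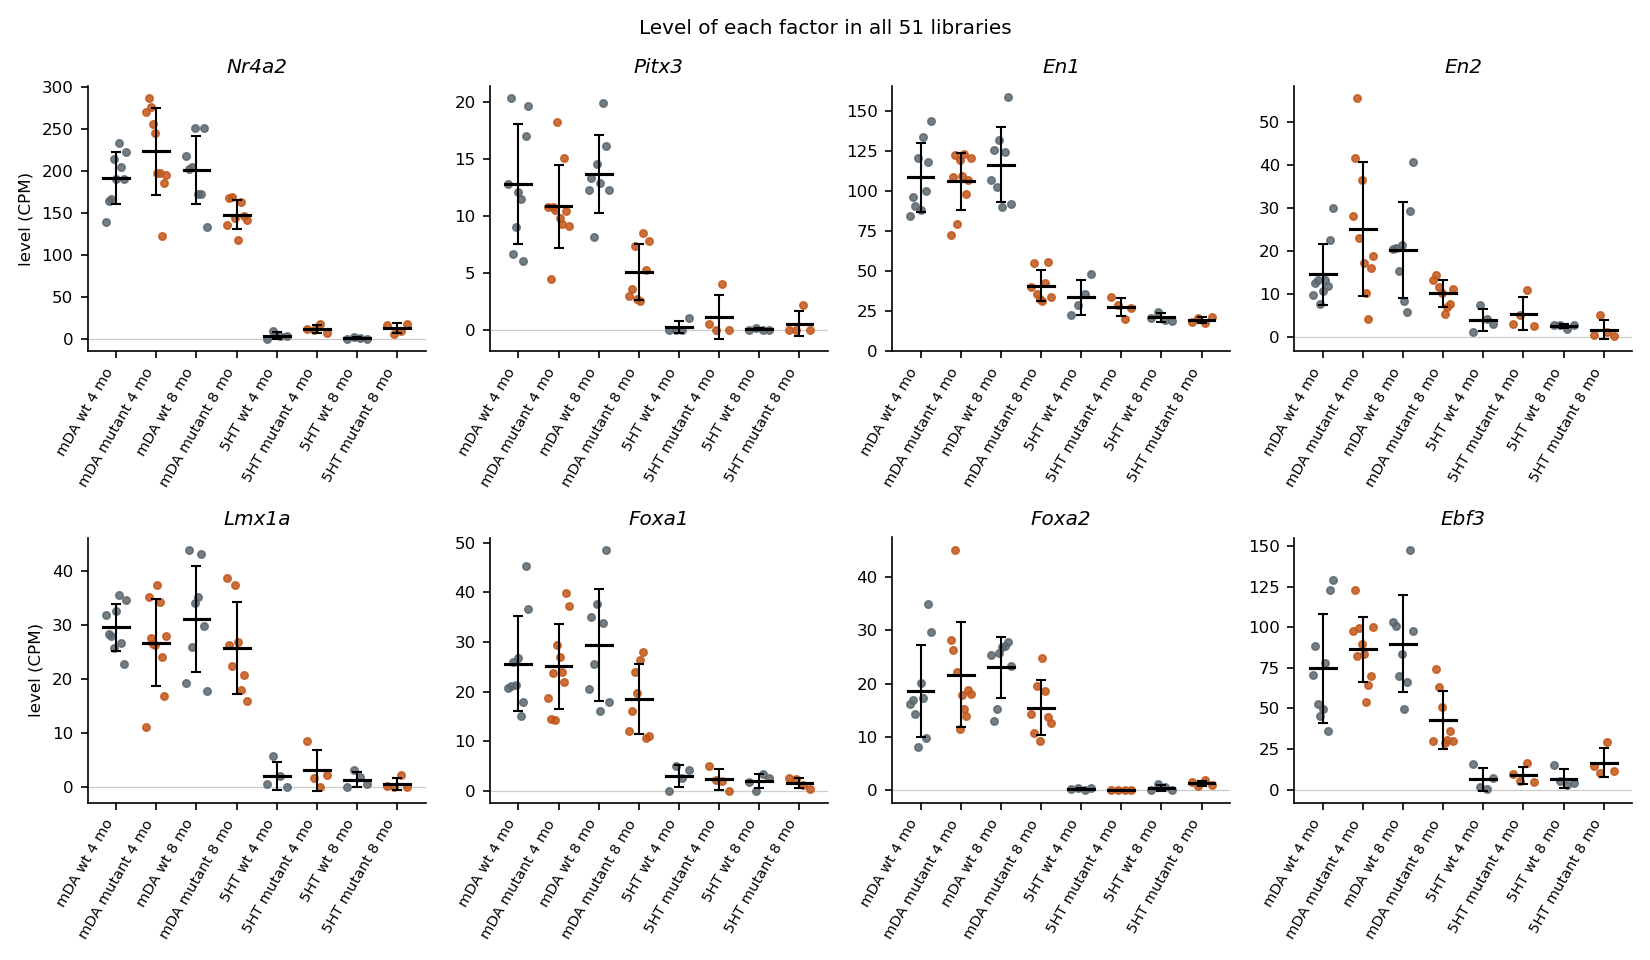
Level of each factor in every library. Each panel is 1 factor, the vertical axis is CPM on a linear scale with its own range, points are libraries of the 8 groups (gray wt, orange mutant), and black bars show mean ± SD. In mDA libraries En1 of the 8-month mutants (31.7 to 55.7 CPM) lies below every other mDA group, and the wt mean of each factor is lower in 5HT than in mDA libraries.

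At 8 months, 4 of the 8 factors were lower in mutant than in wt mDA neurons, none was higher, and all 8 fold changes were below 0. Lower calls made up 1.88% and higher calls 2.44% of all genes in this comparison. The median log2 fold change of the 8 was -0.69, beside 0.02 over all genes tested. In bulk libraries, fewer cells of a type and less RNA per cell cannot be told apart.

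En1, the engrailed homeodomain factor, had the smallest adjusted p of the 8. Its level was 90.4 CPM at the lowest, 116 at the median and 159 at the highest in wt libraries, and 31.7, 38.1 and 55.7 CPM in mutant libraries. The ranges did not overlap, which held for 0.434% of genes in the downward direction and for none of the other 7 factors. The log2 fold change was -1.54 (SE 0.158, adjusted p = 2.17e-09), and the mutant mean was 35.1% of the wt mean. With this fall En1 in mutant mDA neurons, at 41.0 ± 9.63 CPM (n = 8), came within the spread of wt 5HT neurons at 4 months (33.8 ± 11.1 CPM, n = 4). It stayed above the wt 5HT libraries of the same age, which ran from 18.9 to 24.8 CPM.

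Pitx3, a paired-like homeodomain factor needed by substantia nigra neurons, stood at 8.15, 13.1 and 19.9 CPM (lowest, median, highest) in wt and at 2.51, 4.40 and 8.46 CPM in mutant libraries. The highest mutant library alone reached into the wt range. The log2 fold change was -1.56 (SE 0.349, adjusted p = 0.00371). Nr4a2, the nuclear receptor that activates Th and Slc6a3, ran from 133 over 203 to 251 CPM in wt and from 118 over 145 to 168 CPM in mutant libraries. The groups overlapped, and the mutant mean was 73.7% of the wt mean, a log2 fold change of -0.53 (SE 0.148, adjusted p = 0.0271). This call was the least firm of the 4: it was lost without a term for sex (adjusted p = 0.177), with only the 2 groups in the fit (0.0936), within set2 (0.796), and without the library of C51 or of D265 (up to 0.0728), over all alternatives with log2 fold changes below 0.

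Ebf3 stood at 49.8, 90.4 and 148 CPM in wt and at 28.6, 33.2 and 74.5 CPM in mutant libraries. Of the 8 mutant libraries, 5 lay below the wt range, and the log2 fold change was -0.92 (SE 0.189, adjusted p = 0.0013). The other 4 factors did not pass the test. For Foxa2, a forkhead factor of the floor plate, the log2 fold change was -0.76 (adjusted p = 0.0862), with mutant libraries at 9.15 to 24.9 CPM and wt at 13.03 to 27.9 CPM. Its relative Foxa1 had -0.54 (adjusted p = 0.261), with 10.6 to 27.9 against 16.2 to 48.6 CPM. En2 had -0.61 (adjusted p = 0.328), with 5.47 to 14.4 against 5.75 to 40.7 CPM, and the LIM homeodomain factor Lmx1a had -0.37 (adjusted p = 0.437), with 15.9 to 38.8 against 17.8 to 44.0 CPM. These groups overlapped widely. In every mutant library, En1, Pitx3, Ebf3, En2, Foxa1 and Nr4a2 were below their wt mean. Foxa2 was below its wt mean in 7 and Lmx1a in 6 of 8. The share of all genes below their wt mean in every mutant library was not counted. The wt mean of En2 (20.2 CPM) included the wt libraries of set3 (29.3 and 40.7 CPM), a set without mutants at this age. Within set2 the En2 mean was 7.84 CPM in mutant and 7.02 CPM in wt libraries, and within set1 12.4 and 19.5 CPM.

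**Figure D2:**
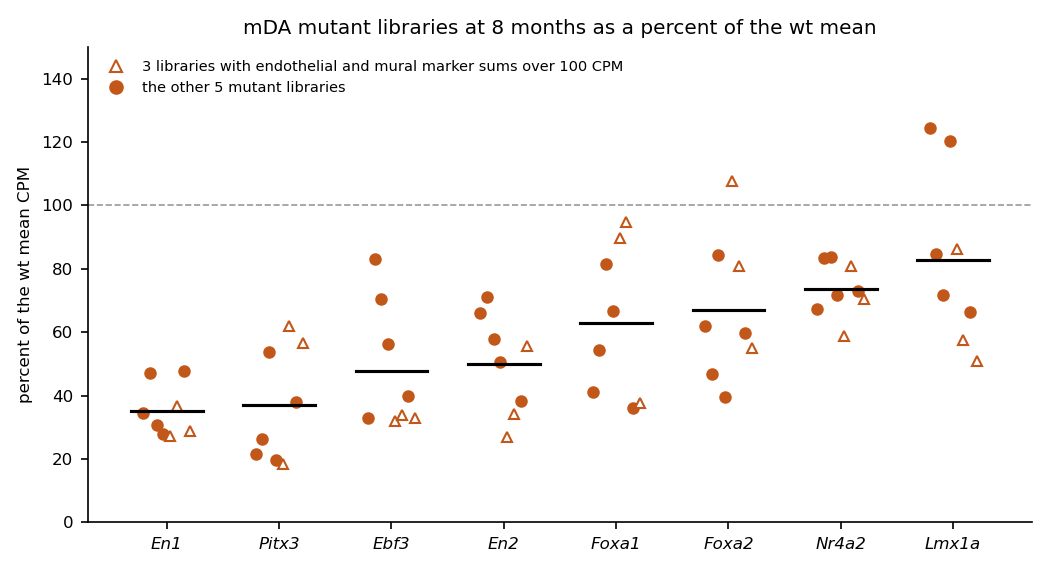
Each factor in the 8 mutant mDA libraries at 8 months as a percent of its wt mean. The vertical axis is percent of the mean wt CPM, the dashed line marks 100, black bars are means, and open triangles mark the 3 libraries with high endothelial and mural markers. En1 stands at 27.1 to 47.7% and Lmx1a at 51.1 to 124%, and the ranges of triangles and circles overlap for each factor.

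Markers of other cells moved with these groups. The summed level of 5 endothelial and mural markers was 557, 276.1 and 554 CPM in the mutant libraries of D161, D170 and D176, all males of set2, while it ran from 3.57 to 13.6 CPM in the other 5 mutant and from 2.997 to 36.2 CPM in the wt libraries, with 1 of the 5 markers (Cldn5) called higher. The 7 astrocyte markers summed to 387 to 2055 CPM in mutant and 288 to 517 CPM in wt libraries, with 2 of 7 called higher. The 4 markers of inhibitory neurons (Gad1, Gad2, Slc32a1 and Slc6a5) summed to 480 to 715 against 113 to 267 CPM, with all 4 called higher. No marker of these lists was at 0 in all libraries of either group. Without D161, D170 and D176, En1 was lower by a log2 fold change of -1.46 (adjusted p = 9.02e-07), Pitx3 by -1.71 (0.00743), Ebf3 by -0.93 (0.0105) and Nr4a2 by -0.65 (0.0174), and Foxa2 passed as well at -1.02 (0.0397). The share of all genes called in that fit is not reported here. The part of the inhibitory neuron markers in these results was not tested.

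Within sequencing sets, En1 was lower in set1 (log2 fold change -1.61, adjusted p = 2.75e-05) and in set2 (-1.57, adjusted p = 0.035). Pitx3 kept the direction and size without passing, at -1.78 in set1 (adjusted p = 0.0789) and -1.39 in set2 (0.654), as did Ebf3 at -0.85 (0.0546) and -0.97 (0.322). Nr4a2 passed in set1 (-0.57, adjusted p = 0.0356) and stood at -0.29 in set2 (0.796). In set2 the only female was the mutant D175, and these fits held a term for sex. The set2 values thus rest on D161, D170 and D176, which had the high endothelial and mural markers, against the 2 wt males. Sexes were uneven in set1 too, with 3 females and 1 male among mutants and 1 female and 3 males among wt animals. Set3 held only wt libraries at this age, both of females.

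At 4 months none of the 8 factors was called in mDA neurons, where 1.17% of genes were called in either direction and 0.577% higher, and 1 factor (En2) was under an unadjusted p of 0.05. DESeq2 called none of the 8 either. En1 stood at 106 ± 17.9 CPM in mutant (n = 10) and 109 ± 21.4 CPM in wt libraries (n = 9), a log2 fold change of 0.00, and Pitx3 at 10.8 ± 3.64 and 12.8 ± 5.25 CPM (-0.20). Nr4a2 stood at 223 ± 51.7 and 191.5 ± 30.6 CPM (0.18), and Ebf3 at 86.3 ± 20.1 and 74.7 ± 33.5 CPM (0.22). The 4 factors lower at 8 months therefore had mutant levels at 4 months whose ranges overlapped wt. En2 had the largest difference, 25.1 ± 15.6 against 14.6 ± 7.07 CPM (log2 fold change 0.58, unadjusted p = 0.0386, adjusted p = 0.311). For the rest, Foxa2 had 0.16, Foxa1 0.04 and Lmx1a -0.12, and the median of the 8 was 0.10.

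**Figure D3:**
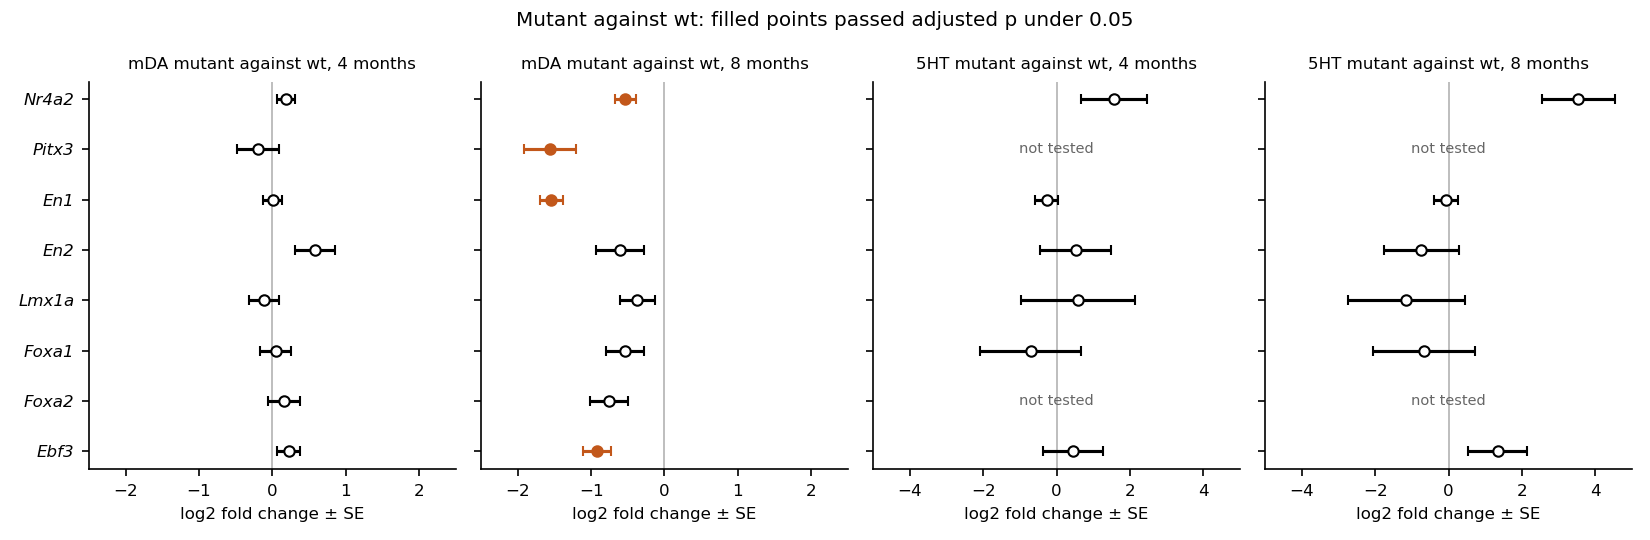
Log2 fold change of each factor, mutant against wt, in the 4 groups of age and cell type. Points are edgeR estimates and bars are SE, filled points passed an adjusted p under 0.05, and the horizontal range is wider in the 5HT panels. Only the mDA panel at 8 months holds filled points: Nr4a2, Pitx3, En1 and Ebf3, between -0.53 and -1.56.

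En2 and Nr4a2 depended on the sequencing set at 4 months. In set1 the 4 mutant libraries were all female and the 3 wt libraries all male, so that sex and genotype cannot be told apart there. Nr4a2 in set1 stood at 256 to 286 CPM in mutant and 139 to 167 CPM in wt libraries, and En2 at 23.1 to 55.5 against 9.68 to 13.3 CPM, with no overlap. Within set1 both were called higher, by 0.92 for Nr4a2 (adjusted p = 0.00037) and 1.76 for En2 (adjusted p = 0.00331), without a term for sex. Within set1 11.2% of all genes were called in either direction. The shares of all genes called higher, or without overlap between these 4 and 3 libraries, were not counted. In set2, with 2 females and 2 males in each group, Nr4a2 ran from 122 to 244 in mutant and 191 to 232 CPM in wt libraries, and En2 from 4.23 to 36.5 and 7.71 to 13.2 CPM. In set3, with 2 male mutants and 2 female wt animals, En2 was the other way round, at 15.96 to 18.9 against 22.5 to 29.9 CPM, and Nr4a2 stood at 185.8 to 195 against 191 to 223 CPM. For Nr4a2 the mutant and wt ranges overlapped in the sets 2 and 3. For En2, the 2 female mutants of set2 (17.2 and 36.5 CPM) were above all 4 wt libraries of that set, and its 2 male mutants (4.23 and 10.3 CPM) were below the male wt libraries. En2 at 8 months was likewise spread by set: its 2 wt libraries of set3 stood at 29.3 and 40.7 CPM, above all others, and in set2 the ranges were 5.47 to 11.2 CPM in mutant and 5.75 to 8.29 CPM in wt libraries.

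**Figure D4:**
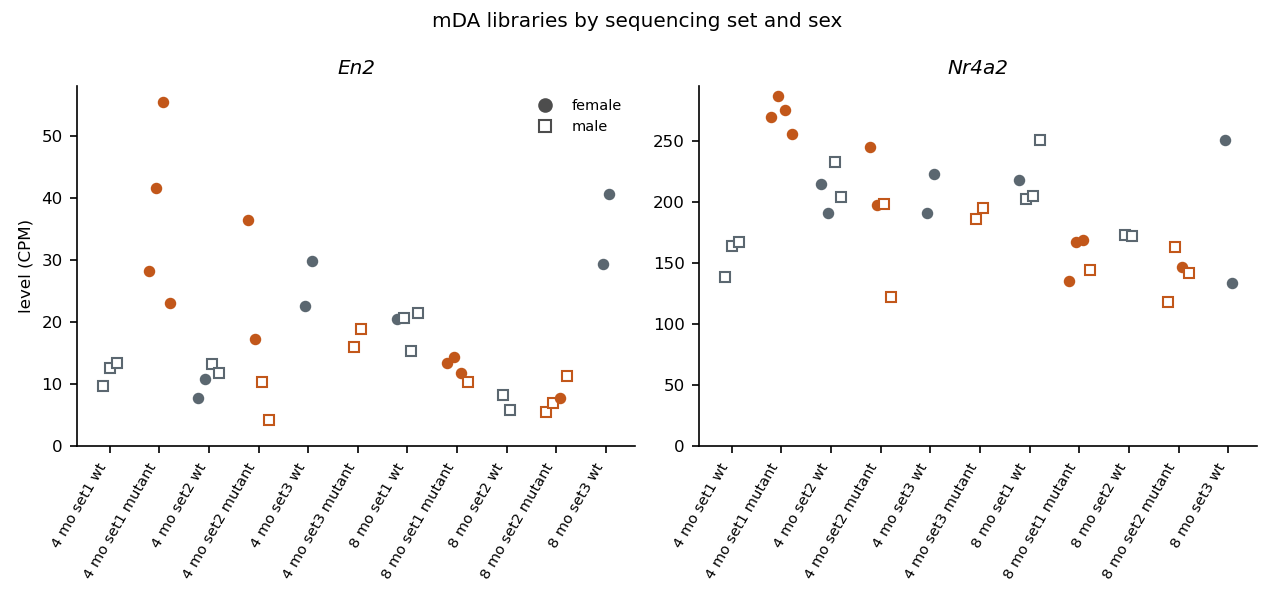
En2 and Nr4a2 in mDA libraries by age, sequencing set and sex. The vertical axis is CPM on a linear scale from 0, each point is 1 library (gray wt, orange mutant, filled circles female, open squares male). At 4 months the female mutants of set1 (Nr4a2 256 to 286 CPM) lie above the male wt libraries of set1, and in set2 the female mutants lie above all wt libraries for En2 but not for Nr4a2.

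The genotype difference itself changed between 4 and 8 months for 3 of the 8 factors. The change was tested as the difference of the 2 log2 fold changes, and 2.35% of genes had a lower value at 8 months. It was -1.54 for En1 (SE 0.2, adjusted p = 2.9e-06), -1.14 for Ebf3 (SE 0.243, adjusted p = 0.00402) and -0.71 for Nr4a2 (SE 0.189, adjusted p = 0.0179). The Nr4a2 value rests in part on set1 at 4 months, where sex and genotype cannot be told apart. Its mean there was 272 CPM in mutant and 156 CPM in wt libraries. In set2 and set3 it was 190 against 210 and 190 against 207 CPM. The change without set1 was not tested. The differences of Pitx3 (-1.37, adjusted p = 0.0563), En2 (-1.19, 0.0747), Foxa2 (-0.92, 0.0931), Foxa1 (-0.59) and Lmx1a (-0.25) did not pass. Between mutant mDA libraries of the 2 ages, 5 factors were lower at 8 months: En1 (-1.38, adjusted p = 2.54e-09), Pitx3 (-1.09, 0.0202), En2 (-1.03, 0.0166), Ebf3 (-0.95, 0.000174) and Nr4a2 (-0.61, 0.00174). Lower calls in that contrast made up 2.64% of genes. Lmx1a (-0.15), Foxa1 (-0.32) and Foxa2 (-0.38) were not called. These contrasts share libraries, and the ages are different animals. The contrasts of age within mutant and within wt mDA neurons took set labels as shared over both ages. The labels may not name the same sequencing run at both ages, so age and run may not be separable there.

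In 5HT neurons none of the 6 factors that passed the filter was called at either age, where 0.0128% of genes were called at 4 months and 0.397% at 8 months. Pitx3 and Foxa2 had too few counts to be tested. Under an unadjusted p of 0.05 were 0 of the 6 at 4 months (1001 genes) and 1 of the 6, Nr4a2, at 8 months (766 genes). DESeq2 called none of the factors at 4 months and Nr4a2 at 8 months.

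Nr4a2 at 8 months stood at 0, 0.69, 1.40 and 2.35 CPM in the 4 wt 5HT libraries and at 5.56, 10.1, 17.1 and 18.2 CPM in the 4 mutant libraries. Every mutant library was above every wt library, which held for 3.72% of genes. The log2 fold change was 3.53 (SE 0.996, unadjusted p = 0.00182, adjusted p = 0.207), and it lay between 3.16 and 4.12 when each library was left out. Other fits passed the threshold, with an adjusted p of 0.00765 by DESeq2, 0.0337 with only the 2 groups in the fit and 1.37e-06 in a fit of all 51 libraries chosen after seeing the data, so the call depends on the fit. The mutant mean, 12.7 ± 5.99 CPM, was 6.35% of the mean of wt mDA libraries of the same age, and the wt 5HT mean was 0.555%. At 4 months, mutant 5HT libraries stood at 6.85, 10.7, 11.99 and 18.2 CPM and wt at 0, 3.35, 3.57 and 9.37 CPM. These overlapped, and the log2 fold change was 1.57 (adjusted p = 0.856).

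Th and Slc6a3, the dopamine transporter, were not called in these libraries. At 8 months Th stood at 8.77 to 27.1 CPM in mutant and 13.9 to 35.8 CPM in wt 5HT libraries (log2 fold change -0.15, adjusted p = 1), and Slc6a3 at 5.73 to 25.6 against 7.28 to 32.4 CPM (-0.32, adjusted p = 1). In mutants these were 1.13% and 0.41% of the wt mDA means. Nr4a1 and Fos, genes that respond to activity and to tissue handling, stood in the same libraries at 23.2 to 52.7 against 11.6 to 33.1 CPM and at 39.2 to 83.7 against 3.74 to 34.0 CPM. Fos was chosen after its values were seen, and the part of these genes in the Nr4a2 value was not tested. Tph2, the serotonin-synthesis enzyme and a marker of the label, was at 325 to 556 CPM in mutant and 2088 to 3411 CPM in wt libraries. The 4 inhibitory neuron markers summed to 512 to 579 against 173 to 272 CPM, with 2 of 4 called higher, and the 5 endothelial and mural markers to 43.2 to 99.9 against 52.1 to 73.3 CPM, with 0 called. Their part in the Nr4a2 value was not tested either.

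None of the other factors was called in 5HT neurons. Ebf3 had 10.2 to 29.5 CPM in mutant and 2.65 to 14.9 CPM in wt libraries at 8 months (log2 fold change 1.34, adjusted p = 1), with overlap. En1 stood at 19.5 ± 1.86 against 21.1 ± 2.63 CPM at 8 months (-0.07) and 27.4 ± 5.61 against 33.8 ± 11.1 CPM at 4 months (-0.27). The En1 ranges of mutant and wt 5HT libraries overlapped at both ages, with 20.2 to 33.7 against 22.4 to 48.2 CPM at 4 months. En2 (-0.74), Foxa1 (-0.67) and Lmx1a (-1.15) had means of at most 2.61 CPM at 8 months. The 13 counts of Pitx3 in mutant libraries at 8 months all came from S446, with 0 in the other 3. Foxa2 had 30 counts over the 4 mutant libraries at 8 months, at 0.695 to 1.82 CPM in each, beside 10 counts in wt, and 0 counts in all 4 mutant libraries at 4 months.

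**Figure D5:**
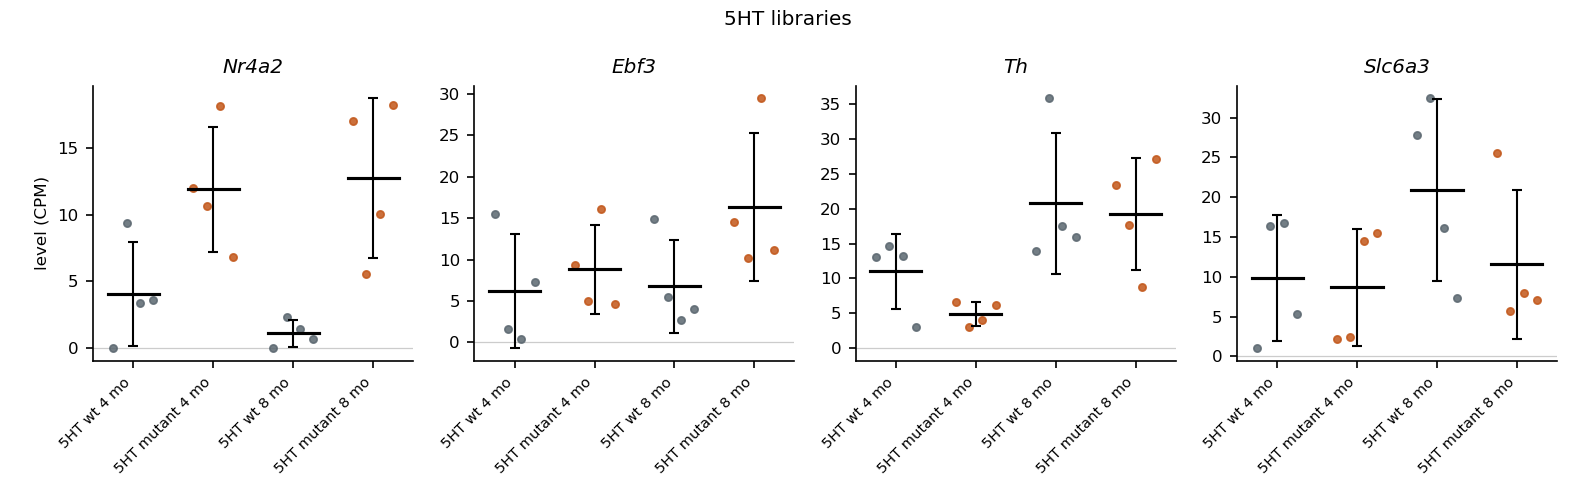
Nr4a2 and Ebf3 beside the dopaminergic genes Th and Slc6a3 in 5HT libraries. The vertical axes are CPM on linear scales with their own ranges, points are libraries (gray wt, orange mutant) and black bars are mean ± SD (n = 4 per group). At 8 months Nr4a2 is at 0 to 2.35 CPM in wt and 5.56 to 18.2 CPM in mutant libraries, while the Th and Slc6a3 groups overlap.

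The genotype effects of the 2 cell types were then compared in one fit of all 51 libraries. At 8 months the log2 effect in mDA minus that in 5HT neurons was -4.03 for Nr4a2 (SE 0.539, adjusted p = 5.53e-06) and -1.45 for En1 (SE 0.284, adjusted p = 0.00992), and 0.125% of genes were lower by this test. The Nr4a2 value joins a lower level in mutant mDA with a higher level in mutant 5HT neurons, while the 5HT effect of En1 was -0.07. That higher 5HT level was not called in the fit of 5HT libraries alone (edgeR adjusted p = 0.207). The fit of all 51 libraries shares its estimate of spread over both cell types. Ebf3 (-2.26, adjusted p = 0.106), Foxa2 (-2.36) and Pitx3 (-4.80, adjusted p = 0.226, resting on a single count in wt 5HT libraries) did not pass. At 4 months 0 of the 8 passed, where 0.0925% of genes did. Within 5HT neurons the genotype effect differed between ages for 0 of 6 factors (0.0128% of genes), and age was called for 0 of 6 in wt (0% of genes; 964 under an unadjusted p of 0.05, among them En1 at -0.71, p = 0.0332) and for 0 of 6 in mutants (0.243%). DESeq2 called 15 genes for age in wt 5HT and 28 for the difference of effects.

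Mutant mDA neurons were also compared with mutant 5HT neurons, with cell type, strain and sequencing set again not separable. At 8 months all 8 factors were higher in mDA neurons (3.38% of genes), with log2 differences from 1.06 for En1 and 1.39 for Ebf3 (adjusted p = 0.0376) over 2.38 for En2, 3.34 for Pitx3, 3.53 for Nr4a2, 3.57 for Foxa1 and 3.64 for Foxa2 to 5.30 for Lmx1a. At 4 months all 8 were higher as well (5.03% of genes), from 1.93 for En1 to 4.22 for Nr4a2, and Foxa2 was at least 138-fold higher, since mutant 5HT libraries had 0 of its counts, and the bound takes 3 counts for the group as the least detectable. Ordered by mean, Nr4a2, Lmx1a, Foxa1 and Foxa2 had every mDA group above every 5HT group, with a gap beyond the spread between mutant mDA at 8 months and the highest 5HT group. For Pitx3, En2 and Ebf3 neighbouring groups in the order overlapped throughout, and for En1 the gap lay between mutant mDA libraries at 4 and at 8 months.

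Of 12 genes that the factors are known to regulate, 6 were lower and none higher in mutant mDA neurons at 8 months, with a median log2 fold change of -0.71 over the 12, where 1.88% of all genes were called lower. Slc18a2, the vesicular monoamine transporter, had -1.49 (adjusted p = 8.64e-15), Slc6a3 -1.40 (8.5e-10), Th -1.22 (2.17e-09) and Klhl1 -0.89 (9.28e-06). At 4 months 0 of these 12 were called (median -0.23). In 5HT neurons at 8 months Slc18a2 (-1.37, adjusted p = 0.00294) and Ddc (-1.08, adjusted p = 0.00533), which serotonergic neurons share, were lower, and Ret, a neurotrophic factor receptor, was higher (2.40, adjusted p = 0.00885). Lower calls there made up 0.147% and higher calls 0.249% of genes.

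Among family relatives of the factors, Pitx1 and Nr4a1 were higher in mutant mDA neurons at 8 months. Pitx1, a pituitary and hindlimb relative of Pitx3, stood at 21.4 ± 5.44 CPM in mutant and 0.203 ± 0.376 CPM in wt libraries (n = 8 each, log2 fold change 6.13, adjusted p = 5.07e-08). Nr4a1, a nuclear receptor related to Nr4a2, stood at 47.1 ± 19.0 against 21.6 ± 9.74 CPM (1.31, adjusted p = 0.00488). Pitx1 was near 0 in wt mDA libraries, with 12 counts over the group and 0 in 6 of 8, and it ran from 15.3 to 29.9 CPM in the mutant libraries. In 5HT neurons at 8 months, Pitx1 was higher as well, with 416 against 3 counts, a ratio of 129 with a 95% counting interval of 43.9 to 629 (adjusted p = 0.0298). That interval comes from counts pooled over each group and leaves out the spread between animals. At 4 months Pitx1 (3.87, adjusted p = 0.000179) and Nr4a1 (1.09, adjusted p = 0.0167) were already higher in mDA neurons, while 0 of 8 relatives were called in 5HT neurons.

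Among other dopaminergic regulators, the homeodomain cofactor Pbx3 was lower in mutant mDA neurons at 8 months, at 70.3 ± 12.7 against 137 ± 23.2 CPM (n = 8 each, log2 fold change -0.84, adjusted p = 0.000116). The mutant libraries ran from 55.9 to 83.6 CPM and the wt libraries from 102 to 172 CPM, without overlap. Every mutant library was lower for 0.434% of genes in this comparison, and lower calls made up 1.88%.

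The genes whose log2 CPM followed each factor most closely over the 51 libraries were sought among 16550 genes, as a description of libraries that share cell type. Foxp2 (Pearson r = 0.946), Satb1 (0.946) and Rreb1 (0.945) were closest to Nr4a2, and Foxp2 (0.941) and Gucy2c (0.924) to Pitx3. For En1 they were Clptm1l (0.947), Ptprz1 (0.907) and Lix1 (0.903), and for En2 Amotl1 (0.890), Erc2 (0.880) and Epha10 (0.852). For Lmx1a they were Kcnd3 (0.917), Arhgap6 (0.915) and Chrna6 (0.914), for Foxa1 Rreb1 (0.907), Fam102b (0.900) and Satb1 (0.898), for Foxa2 Satb1 (0.957), Nrxn3 (0.952) and Th (0.952), and for Ebf3 Bnc2 (0.913), Ptpru (0.898) and Ntsr1 (0.889).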

How the data were processed

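RNA of sorted neurons from 51 animals was sequenced by Smart-seq2, as the labels' protocols state. The values that the authors deposited are unnormalized whole-number counts per gene in 1 table. Per the submitters' processing notes, reads were mapped with STAR 2.7.0a, and the builds named are mm10 and GRCm38. How reads were counted, and whether by strand, is not given in the sources used here. One row, the reporter mCherry, was not tested. Samples were grouped by cell type, genotype and timepoint in the labels, and the deposited counts were tested with edgeR 4.0.16 (TMM, filterByExpr with a minimum count of 10, robust quasi-likelihood, Benjamini-Hochberg) in R 4.3.3 with limma 3.58.1. The mDA fit of genotype effects held sequencing set within age and sex, and the 5HT fit sex. The fit of all 51 libraries held both for genotype effects, and sex alone for the contrasts between mutant cell types. For the contrasts of age, the mDA fit held set labels shared over both ages, and sex. The fit of wt libraries of both cell types held sex alone. SEs are approximate, from the log2 fold change and its F statistic. Alternatives were RLE scaling, no filter, DESeq2 1.42.0, fewer groups or terms, single sets and leaving out each library. A fit of all libraries for 5HT neurons, and one without D161, D170 and D176, were added after seeing the data. The test was tested on simulated data. Members and lists were chosen with earlier results of these data known. Named genes are the 8 factors, Eed, up to 4 called genes of smallest p per list and the 3 genes most like each factor by Pearson r (log2 CPM, prior count 2). The Foxa2 ratio against a group with 0 counts took 3 counts as its floor. Promoters came from RefSeq and gene positions from GENCODE, both GRCm38. Over 15 comparisons, p-values were adjusted within each. Replicate libraries differed by more than sampling noise. Some list members, and list counts that rest on them, are not reported here.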

Additional observations from a re-analysis of the deposited data

Results flagged for a closer look

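In 7 of 63 sets of 4 to 10 libraries, 1 library stood far from the rest of its group, where the rule's nominal chance rate is about 1 in 20 groups. In 5HT libraries Pitx3 was highest in S374 among wt at 4 months (1.07 CPM), in S427 among mutants at 4 months (4.03 CPM), in S382 among wt at 8 months (0.181 CPM) and in S446 among mutants at 8 months (2.15 CPM). In each of these 4 groups 2 or 3 of the 4 libraries had 0 counts of Pitx3, so that a few counts in 1 library were enough and the rate of 1 in 20 does not apply. En2 was lowest in S383 among wt 5HT libraries at 8 months (1.87 CPM), and Lmx1a was highest in S446 among mutants of that age (2.32 CPM). In mDA libraries Foxa2 was highest in D192 among mutants at 4 months (45.2 CPM).

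A difference between genotype effects passed its own test in 5 cases. Between ages in mDA neurons, the 8-month minus 4-month difference was -0.71 for Nr4a2, -1.54 for En1 and -1.14 for Ebf3. The Nr4a2 value rests in part on set1 at 4 months, where sex and genotype cannot be told apart. Between cell types at 8 months, the mDA minus 5HT difference was -4.03 for Nr4a2 and -1.45 for En1. The 5HT effect of Nr4a2 was not called in the edgeR fit of 5HT libraries alone (adjusted p = 0.207).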

How the results depend on the processing

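Of 933 values recomputed under the alternatives, 826 counted as the same. For fold changes this meant the same direction and side of the threshold. For numbers of factors and shares of genes called it meant a value equal or within a fixed ratio. At 8 months in mDA neurons, En1, Pitx3 and Ebf3 stayed lower in all 16 fits without 1 library, and Nr4a2 in 14. Shares of genes called are given as percent of the genes with an adjusted p. DESeq2 raised them in the mutant against wt contrasts, from 1.17 to 2.37% in mDA at 4 months, 4.32 to 6.87% in mDA at 8 months, 0.0128 to 0.307% in 5HT at 4 months and 0.397 to 1.13% in 5HT at 8 months. For the difference between ages it called 6 rather than 3 factors lower in mDA, and 0.179 rather than 0.0128% of genes in 5HT. For mDA minus 5HT it gave 0.969 rather than 0.0925% and 1 rather than 0 factors lower at 4 months, and 0.55 rather than 0.179% and 4 rather than 2 factors lower at 8 months. Its shares were 8.32 rather than 5.41% between mutant cell types at 8 months, and for age 0.478 rather than 0% in mDA wt, 0.096 rather than 0% in 5HT wt and 1.38 rather than 0.243% in 5HT mutants. Without a filter the shares were 0.539% for mDA at 4 months, 3.58 rather than 6.11% for its difference between ages, 0.0508% for 5HT at 4 months, 0.0212% for its difference between ages, 0.0375% for mDA minus 5HT at 4 months and 0.00847% for age in 5HT wt, and En1 in mDA at 4 months turned to -0.0066. With only the 2 groups compared they were 2.74% for mDA at 8 months, 0% for 5HT at 4 months and 1.43% at 8 months, where 1 factor (Nr4a2) was higher, as with DESeq2. The fit of all 51 libraries gave 0.299% for 5HT at 4 months and 0.772% at 8 months, again with 1 factor higher. Without a sex term the share was 2.55% for mDA at 8 months.

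Without a set term it was 0.37% for mDA at 4 months, with En1 at -0.0157 and Foxa1 at -0.0048. Within set1 at 4 months 11.2% of genes were called, with 2 factors higher and Foxa1 at -0.22. Within set2 at 4 months it was 0.0594%, with Nr4a2 at -0.12, Pitx3 at 0.49 and Lmx1a at 0.0515. Without set1 it was 0.129%, with Nr4a2 at -0.0835, Pitx3 at 0.14 and Foxa2 at -0.12. At 8 months 2 factors were lower within set1, where Lmx1a was at 0.31, and 1 factor with 0.639% of genes within set2, where En2 was at 0.17. Leaving out 1 library gave 0.509 to 3.15% for mDA at 4 months, with En1 from -0.0339 to 0.0756 and Foxa1 from -0.0188 to 0.12. For 5HT it gave 0 to 0.0249% at 4 months, with En2 from -0.31 (without S427) to 0.94, Lmx1a from -0.79 (without S425) to 2.18 and Ebf3 from -0.0408 (without S373) to 1.67, and 0.183 to 0.299% at 8 months, with En1 from -0.13 to 0.0162 (without S446). The cause of these changes was not tested, except that single sets and smaller fits hold fewer libraries. No paired analysis was possible because replicates carry the names of single animals. Depth limits Pitx3 and Foxa2 in 5HT libraries, which held at most 30 counts per group.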
